A study of Homo sapiens with 6 samples.

Results

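Caspases are cysteine proteases that carry out apoptosis, and the inhibitor of apoptosis proteins (IAPs) are the family that holds them in check. The 8 genes described here are 4 caspases (CASP2, CASP6, CASP8 and CASP9) and 4 genes of the IAP family (XIAP, BIRC2, BIRC3 and BIRC5). They were chosen by name, as the rows of the deposited table that carry these symbols, 8 of 60605 genes. All 8 passed the expression filter, a mean of at least 0.5 FPKM over the 6 libraries, which 14205 genes passed. FPKM is a count divided by exonic length and by the library total.

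The libraries are poly(A) RNA sequencing of SW480, a widely used human line derived from a colon tumour. The vector group (n = 3 libraries) carried an empty lentiviral vector, and the TIPE group (n = 3 libraries) carried one that expresses TIPE, the common name of TNFAIP8. Both groups had been kept in puromycin at 2 µg/ml for at least 2 weeks. Separate infections or cultures are not stated for the libraries of a group, so p-values reflect only how these libraries vary, possibly for technical reasons. TNFAIP8 had 104 to 175 counts in the vector libraries and 62902 to 98811 in the TIPE libraries. Total counts ran from 13957349 to 20345330 per library. Of 12 colon epithelial markers 9 were measured, among them EPCAM, KRT8, KRT18 and VIL1, while CDX1 was at 0 counts. Of the 9, 5 were called higher in TIPE and 3 lower, against 20.9% and 20.7% of all tested genes. Their median log2 fold change was 0.26, or 0.04 after correction for GC content and length. Of 14 markers of leukocytes, fibroblasts and endothelium, 1 (CD14) passed the filter. Their summed level was 1.16 to 1.47 FPKM in the vector libraries and 1.42 to 1.90 FPKM in the TIPE libraries, with PTPRC, CD3E, COL1A2 and COL3A1 at 0 counts. Of 9 mitochondrial transcripts taken as a sign of RNA quality, 1 rose (MT-CO1, log2 fold change 0.21, edgeR adjusted p = 0.0424). That call was lost when vector replicate 1, vector replicate 2 or TIPE replicate 2 was left out (adjusted p = 0.232, 0.111 and 0.318) and after correction for GC content and length (0.197). The count of mitochondrial transcripts called higher ran from 0 to 4 when 1 library at a time was left out, with 3 without vector replicate 3 and 4 without TIPE replicate 3. After quantile normalization 6 were called lower.

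As background, caspases are made as inactive precursors. CASP8 is activated on death receptors, CASP9 on the apoptosome that APAF1 forms with cytochrome c, and CASP2 on a platform built by PIDD1 and CRADD. These initiators set off the executioner caspases, to which CASP6 belongs. XIAP binds and blocks active CASP9. BIRC2 and BIRC3 (cIAP1 and cIAP2) are ubiquitin ligases of TNF receptor complexes, and BIRC3 is a known NF-kappaB target. BIRC5 (survivin) belongs to the chromosomal passenger complex of dividing cells. TNFAIP8 is known as a TNF-induced gene linked to survival of tumour cells.

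XIAP and BIRC5 were the members that changed, and both fell in the TIPE libraries, by 24.8% and 20.3%. None of the 4 caspases passed the test, nor did BIRC2 or BIRC3. The count of 2 of 8 members called, 25% of them, is to be read against the 41.5% of all tested genes that were called (edgeR's quasi-likelihood test, adjusted p under 0.05, either direction), with 20.7% of tested genes called lower and 20.9% called higher. Median log2 fold changes were -0.06 for the 8 members and -0.00048 for all 14205 tested genes. After correction for GC content and length they were 0.08 for the members and -0.00047 for the 14115 tested genes of known GC content. After scaling by TMM, edgeR's correction for library composition, the libraries of the 2 groups did not overlap for 3 of the 8 members (XIAP, BIRC5 and CASP6), against 50.3% of all tested genes.

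**Figure D1:**
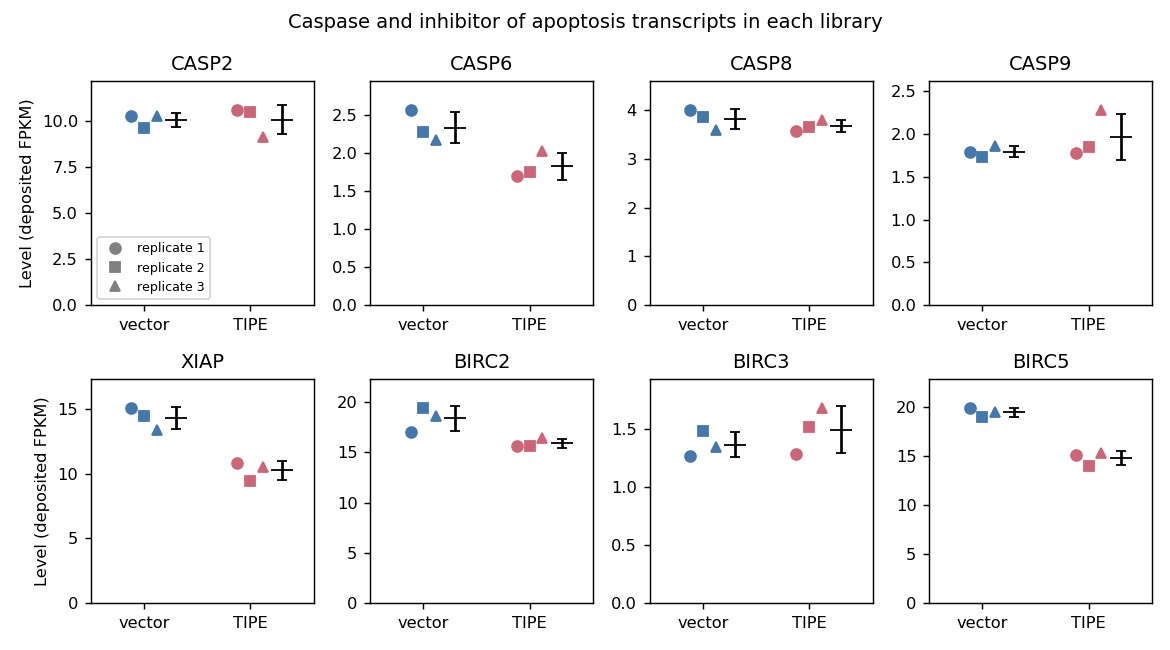
Level of each of the 8 genes in each library, in deposited FPKM on a linear axis from 0. Points are the 3 vector (blue) and 3 TIPE (red) libraries, with a marker shape for each replicate. The black bars are group means with SD (n = 3). XIAP, BIRC5, CASP6 and BIRC2 lay lower in every TIPE library than in any vector library, while the points of CASP2, CASP8, CASP9 and BIRC3 overlapped. FPKM carries no TMM factors, and the share of all genes without overlap on this scale was not computed. After TMM scaling BIRC2 overlapped too, which left 3 of 8 members without overlap, against 50.3% of all tested genes. CASP6 and BIRC2 did not pass the test.

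Fold changes in these libraries followed the base composition and the length of transcripts, which differ widely among the members. With tested genes split by GC content into 5 classes of 2823, the class of lowest GC (26.0% to 41.0%) had a median log2 fold change of -0.21 and the class of highest GC one of 0.19. By length the median was -0.15 over the 2822 genes with the longest exons and 0.09 over the 2824 with the shortest. XIAP (39.0% GC), BIRC2 (38.0%) and BIRC3 (34.8%) lay in the class of lowest GC. CASP8 (42.6%), CASP2 (43.6%) and CASP6 (45.1%) lay in the next class. BIRC5 (52.2%) and CASP9 (52.8%) lay in class 4, whose median log2 fold change was 0.10. GC content is that of the longest annotated transcript. With the trend of each library on GC content and exonic length removed, 34.9% of genes were called, and of the members 2 were called lower (XIAP and BIRC5) and 2 higher (BIRC3 and CASP2). Values with the trend removed are therefore given beside the others. Whether the trend is technical was not tested.

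**Figure D2:**
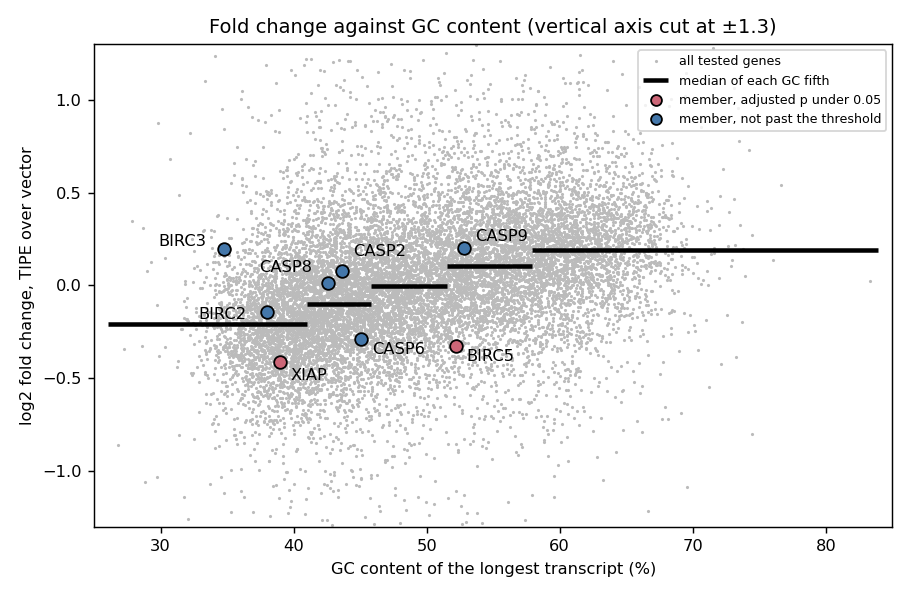
Log2 fold change of TIPE over vector libraries against the GC content of the longest transcript. Grey points are tested genes within the plotted range, which leaves out the most extreme ones, black bars the median of each of the 5 GC classes, and ringed points the 8 members (red where the adjusted p was under 0.05); XIAP, BIRC2 and BIRC3 share the class whose median was -0.21, where BIRC3 lay above the bar and XIAP below it.

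Among the IAP genes, XIAP (ENSG00000101966, chromosome X, 123859724 to 123913976, plus strand, hg38) encodes the family member that inhibits caspases most directly. XIAP was at 15.10, 14.46 and 13.38 FPKM in vector replicates 1, 2 and 3. It was at 10.85, 9.45 and 10.49 FPKM in TIPE replicates 1, 2 and 3. Every TIPE library lay below every vector library, with a gap between the groups larger than the range within either. The mean fell from 14.3 ± 0.869 to 10.3 ± 0.727 FPKM (SD, n = 3 each). The log2 fold change of XIAP was -0.41 (standard error 0.06) (edgeR adjusted p = 2.04e-05), on 1742 to 2536 counts in the vector and 1317 to 1730 in the TIPE libraries. With the GC and length trend removed it was -0.17 (95% interval -0.28 to -0.06, edgeR adjusted p = 0.0185). Of the 2823 genes in the same GC class, 21.2% had a lower log2 fold change than XIAP. The fall thus kept its call and its direction, at less than the size first measured. The genes annotated within XIAP, among them XIAP-AS1 on the opposite strand, had 0 to 6 counts in all libraries together, against 11004 for XIAP.

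BIRC5 (ENSG00000089685, chromosome 17, 78214186 to 78225636, plus strand) encodes survivin, which has a single BIR domain and acts in mitosis. BIRC5 was at 19.86, 18.98 and 19.45 FPKM in the vector libraries. It was at 15.08, 13.94 and 15.29 FPKM in the TIPE libraries. These groups did not overlap either, and the vector values were close together. The mean fell from 19.4 ± 0.440 to 14.8 ± 0.726 FPKM (SD, n = 3 each). On the log2 scale BIRC5 fell by 0.33 (standard error 0.06, edgeR adjusted p = 0.000172). BIRC5 fell although the genes of its GC class had a positive median, and 8.08% of those 2823 genes had a lower log2 fold change. With the GC and length trend removed the log2 fold change of BIRC5 was -0.42 (95% interval -0.53 to -0.30, edgeR adjusted p = 5.49e-06).

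Mitosis genes and partners of survivin were measured in the same libraries. Over all tested genes 20.7% were called lower and 20.9% higher. Of 29 measured genes of the chromosomal passenger complex and of mitosis, 24 fell and none rose, with a median log2 fold change of -0.41. With the GC and length trend removed 26 fell, and the median was -0.36. Without TIPE replicate 3, cyclin B1 (CCNB1) rose (log2 fold change 0.14, edgeR adjusted p = 0.0416). CCNB1 also rose with the GC trend alone removed (0.20, adjusted p = 0.0161). The scaffold INCENP of the passenger complex went from 10.2 to 6.98 FPKM (log2 fold change -0.47, adjusted p = 0.000167). Its subunit borealin (CDCA8) stood at a log2 fold change of -0.21 (adjusted p = 0.0305), a call lost without vector replicates 1 or 3 and without TIPE replicates 1 or 3 (adjusted p = 0.102, 0.0844, 0.0571 and 0.0625). The kinase of the complex, AURKB, missed the threshold at -0.12 (adjusted p = 0.171), and passed with the trend removed (-0.28, adjusted p = 0.00179). Among the genes of this list with the lowest p, CENPF went from 6.14 to 2.93 FPKM, the motor KIF11 fell by 0.79 on the log2 scale and the proliferation marker MKI67 went from 14.4 to 7.48. Results from these libraries were already known when this list was chosen, so its direction is no independent support for the fall of BIRC5. BIRC5 lay above the list median as counted (-0.33) and below it with the trend removed (-0.42). In bulk RNA, fewer cells in mitosis and less of a transcript per cell cannot be told apart.

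BIRC2 and BIRC3 are neighbours on chromosome 11 in the same orientation, 7808 bp apart, and both encode ligases with 3 BIR domains and a RING domain. BIRC2 (ENSG00000110330, 102347211 to 102378670) was at 17.06, 19.43 and 18.66 FPKM in the vector libraries and at 15.64, 15.62 and 16.44 FPKM in the TIPE libraries. The FPKM values did not overlap, but the TMM-scaled CPM (counts scaled to library size) did, with 75.2 in vector replicate 1 and 76.0 in TIPE replicate 3. The log2 fold change of BIRC2 was -0.14 (95% interval -0.27 to -0.01), which did not pass (edgeR adjusted p = 0.0746). Leaving out vector replicate 1 made it pass (-0.20, adjusted p = 0.0286), as did leaving out TIPE replicate 3 (-0.16, adjusted p = 0.0241). Removing the GC and length trend gave 0.02 (95% interval -0.09 to 0.14, adjusted p = 0.783). The sign for BIRC2 thus turned when that trend was removed.

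BIRC3 (ENSG00000023445, 102317450 to 102339403) was the least abundant member per kilobase. BIRC3 was at 1.27, 1.48 and 1.34 FPKM in the vector libraries and at 1.28, 1.52 and 1.68 FPKM in the TIPE libraries. These groups overlapped, and the log2 fold change of 0.19 (95% interval -0.05 to 0.44) did not pass (edgeR adjusted p = 0.202). With the GC and length trend removed it was 0.47 (95% interval 0.23 to 0.72) and passed (adjusted p = 0.00303). Of the 2823 genes in its GC class 90.3% had a lower log2 fold change. BIRC3 rested on 146 to 233 counts per library, against 1040 to 1717 for BIRC2.

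A ratio of the 2 neighbours within a library does not depend on how the library is scaled. As a ratio of FPKM, BIRC3 per BIRC2 was 0.0744, 0.0762 and 0.0718 for vector replicates 1 to 3. For TIPE replicates 1 to 3 it was 0.0818, 0.0973 and 0.102. All 3 TIPE libraries had a higher ratio than any vector library, a log2 difference of 0.33. The exact two-sided permutation test gave p = 0.1, the smallest that 3 against 3 allows, and 0.2 after adjustment over the 2 ratios tested. BIRC5 per XIAP, the ratio of the members that fell, was 1.36 ± 0.0807 in the vector and 1.44 ± 0.0450 in the TIPE libraries (SD, n = 3 each). Those ratios overlapped (exact p = 0.2, adjusted 0.2, log2 difference 0.08). Neither ratio was corrected for the GC and length trend. With that trend removed BIRC5 fell more than XIAP (log2 fold changes of -0.42 and -0.17), while as counted it fell less (-0.33 and -0.41). BIRC3 and BIRC2 were at 0.47 and 0.02 with the trend removed.

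**Figure D3:**
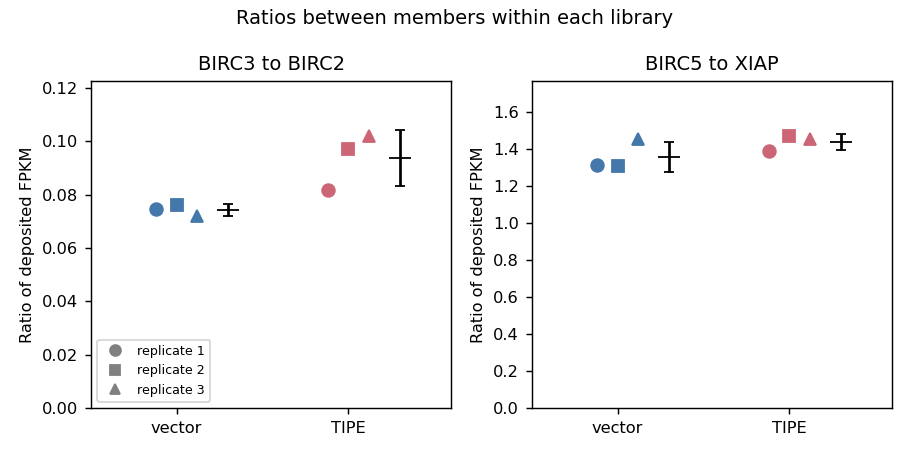
Ratio of deposited FPKM of BIRC3 to BIRC2 (left) and of BIRC5 to XIAP (right) in each library, on linear axes from 0. Points are libraries, with a marker shape for each replicate, and black bars are means with SD (n = 3); the BIRC3 to BIRC2 ratio was 0.0718 to 0.0762 in vector and 0.0818 to 0.102 in TIPE libraries, while the BIRC5 to XIAP ratios overlapped.

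The promoters of these neighbours are shown because NF-kappaB, a factor known to act on BIRC3, binds a short consensus that can be looked up in them. The RefSeq windows (GRCh38.p14) run from 250 bases before to 50 bases after a gene start and are written 5′ to 3′ on the plus strand. For each gene the window nearest the deposited gene start was taken. The BIRC3 window is chr11:102317234-102317533 and the BIRC2 window is chr11:102346964-102347263. Capitals mark matches to the kappaB consensus of 10 bases on either strand.
BIRC3: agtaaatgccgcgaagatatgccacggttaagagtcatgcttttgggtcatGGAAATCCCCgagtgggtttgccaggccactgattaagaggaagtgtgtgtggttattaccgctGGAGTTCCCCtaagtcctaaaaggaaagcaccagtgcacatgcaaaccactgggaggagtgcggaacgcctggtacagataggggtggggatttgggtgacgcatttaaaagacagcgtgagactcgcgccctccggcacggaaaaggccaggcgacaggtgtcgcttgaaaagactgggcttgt
BIRC2: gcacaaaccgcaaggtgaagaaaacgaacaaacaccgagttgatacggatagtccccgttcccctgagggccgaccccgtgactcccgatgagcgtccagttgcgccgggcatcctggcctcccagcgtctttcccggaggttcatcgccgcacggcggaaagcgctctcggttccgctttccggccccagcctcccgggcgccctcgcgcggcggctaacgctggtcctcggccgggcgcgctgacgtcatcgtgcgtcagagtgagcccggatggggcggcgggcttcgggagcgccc
The BIRC3 window held 2 matches that do not overlap each other, which begin 199 and 135 bases before the gene start, and the BIRC2 window held none. Of all 35116 windows of this length, 11.3% held at least 1 match. The windows also differed in composition, with 53.3% GC and 15 CG dinucleotides for BIRC3 and 68.7% GC and 40 for BIRC2. A match is a run of letters and not a measured binding site.

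NF-kappaB target genes other than BIRC3 were measured beside it. Of 17 tested, 11 rose, against 20.9% of all tested genes called higher, and 1 fell, with a median log2 fold change of 0.47, or 0.37 with the trend removed, when 9 rose and none fell. TNFAIP2, the chemokines CXCL8 and CCL20 and CXCL3 led the list by p, at log2 fold changes of 2.62, 1.55, 1.68 and 1.36 (the highest edgeR adjusted p of these was 2.80e-07). The 1 that fell was CYLD, a deubiquitinase (-0.20, adjusted p = 0.0266), and its call was lost without vector replicates 1 or 2 and without TIPE replicates 1 or 2 (adjusted p = 0.123, 0.0627, 0.0619 and 0.0793). Earlier results of these libraries had shown this list to be higher, so its direction is no independent support. BIRC3 lay below the list median as counted (0.19) and above it with the trend removed (0.47).

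Of 16 measured genes of the TNF receptor complexes in which BIRC2 and BIRC3 act, 4 rose and 6 fell. The shares over all tested genes were 20.9% and 20.7%. The median log2 fold change of the 16 was -0.03. The adaptor TRAF2, which recruits BIRC2 and BIRC3 to the receptor, went from 5.54 to 6.80 FPKM (log2 fold change 0.37, edgeR adjusted p = 0.00239). TAB2 and TAB3, ubiquitin-binding partners of the kinase TAK1, each had a log2 fold change of -0.47, and TAK1 itself (MAP3K7) one of -0.29. IKBKG, the regulatory subunit of the IkappaB kinase, had one of 0.61 (adjusted p = 0.000580). With the GC and length trend removed TRAF2 and MAP3K7 did not pass (adjusted p = 0.110 and 0.320).

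The initiator CASP8 (ENSG00000064012, chromosome 2, 201233443 to 201287711, plus strand) was at 4.00, 3.87 and 3.60 FPKM in the vector and 3.57, 3.66 and 3.81 FPKM in the TIPE libraries. The groups overlapped. The log2 fold change of CASP8 was 0.01 with a 95% interval of -0.14 to 0.17 (edgeR adjusted p = 0.904), and 0.16 with the trend removed (0.01 to 0.31, adjusted p = 0.0865). Of 10 measured genes of the death receptor complex that activates CASP8, 4 rose and none fell. Over all tested genes 20.9% were called higher and 20.7% lower, 41.5% in either direction. The 10 genes had a median of 0.14. Those that rose were the adaptor TRADD (log2 fold change 0.53), the TNF receptor TNFRSF1A (0.29), a TRAIL receptor, TNFRSF10B (0.24), and DAXX (0.24). The other TRAIL receptor of the list, TNFRSF10A, did not pass (0.05, adjusted p = 0.533). With the trend removed 3 rose, with TRADD at 0.28, TNFRSF1A at 0.14 and TNFRSF10B at 0.21, while DAXX did not pass (0.11, adjusted p = 0.13). TNFRSF1A also lost its call there once the replicate block was added (adjusted p = 0.0664). The direct adaptor FADD (0.11, adjusted p = 0.251) and the CASP8 inhibitor CFLAR (-0.11, adjusted p = 0.303) did not pass. CASP10, the closest relative of CASP8, was at 0.0633 and 0.0767 FPKM in the vector and TIPE groups, under the filter.

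CASP9 (ENSG00000132906, chromosome 1, 15490832 to 15526534, minus strand), the caspase of the apoptosome, was at 1.79, 1.73 and 1.86 FPKM in the vector and 1.78, 1.85 and 2.28 FPKM in the TIPE libraries. TIPE replicate 3 was the highest of the 6 and the other 2 TIPE libraries lay among the vector values. The log2 fold change of CASP9 was 0.20 with a 95% interval of -0.05 to 0.45 (edgeR adjusted p = 0.187). Leaving out TIPE replicate 3 gave 0.10 (adjusted p = 0.544), and removing the GC and length trend gave 0.13 (adjusted p = 0.427). Of 7 measured genes of the apoptosome list, 3 rose and 2 fell, against 20.9% and 20.7% of all tested genes. The list median was 0.24. The 2 that fell were the core of the complex. Cytochrome c (CYCS) went from 94.4 to 67.6 FPKM (log2 fold change -0.41, adjusted p = 9.03e-06), and the scaffold APAF1 from 1.86 to 1.42 FPKM (-0.33, adjusted p = 0.0139). The call of APAF1 was lost without vector replicates 1 or 2, without TIPE replicate 2 (adjusted p = 0.0581, 0.0532 and 0.0813) and with the trend removed (-0.16, adjusted p = 0.239). CYCS kept its call there (-0.28, adjusted p = 0.000224). The 3 that rose were the mitochondrial chaperones HSPE1 and HSPD1 (0.36 and 0.30) and the pore-forming protein BAX (0.24). BAX lost its call when vector replicate 1 was left out (adjusted p = 0.0571) and when the trend was removed (adjusted p = 0.587). With the trend removed 2 genes of the apoptosome list rose and 1 fell, and the list median was 0.05.

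CASP2 (ENSG00000106144, chromosome 7, 143288215 to 143307696, plus strand) was the most abundant of the 4 caspases. CASP2 was at 10.28, 9.59 and 10.24 FPKM in the vector and 10.57, 10.47 and 9.14 FPKM in the TIPE libraries. The TIPE libraries held both its highest and its lowest value. The log2 fold change of CASP2 was 0.08 (95% interval -0.06 to 0.22, edgeR adjusted p = 0.368). CASP2 passed when TIPE replicate 3 was left out (0.15, adjusted p = 0.0274) and when the GC and length trend was removed (0.22, 95% interval 0.09 to 0.35, adjusted p = 0.00949). Of 5 measured genes of its activation platform 1 rose and 1 fell, against 20.9% and 20.7% of all tested genes. PIDD1 rose (0.27, adjusted p = 0.0309) and MDM2, a PIDD1-dependent substrate of CASP2, fell (-0.26, adjusted p = 0.00313), while CRADD did not pass (-0.03, adjusted p = 0.863). Neither call held with the trend removed (adjusted p = 0.716 and 0.335). PIDD1 was also lost without vector replicates 1 or 3 and without TIPE replicate 2 (adjusted p = 0.0583, 0.144 and 0.0818). CDKN1A, of the same list, stood at -0.37 (adjusted p = 0.0522) and passed without TIPE replicate 3 (-0.41, adjusted p = 0.0436) and with the trend removed (-0.54, adjusted p = 0.00627).

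CASP6 (ENSG00000138794, chromosome 4, 109688622 to 109703583, minus strand), the executioner that cleaves nuclear lamins, was at 2.56, 2.27 and 2.17 FPKM in the vector and 1.70, 1.75 and 2.03 FPKM in the TIPE libraries. All 3 TIPE values lay below the vector values. The difference did not pass, with a log2 fold change of -0.29 and a 95% interval of -0.64 to 0.06 (edgeR adjusted p = 0.181). With the GC and length trend removed the log2 fold change was -0.33 (adjusted p = 0.131). CASP6 had the fewest counts of the members, 54 to 86 per library, and the widest interval. It overlaps MCUB on the opposite strand by 98 bp, and a strand setting of the counting was not found in the labels.

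Outside the 8, the inflammatory caspase CASP4 rose from 10.4 to 14.0 FPKM (log2 fold change 0.50, edgeR adjusted p = 1.65e-06). CASP1, CASP5, CASP12 and CASP14 lay under the filter. BIRC6, a giant IAP with ubiquitin-ligase activity, fell from 8.06 to 5.40 FPKM (-0.50, adjusted p = 4.86e-05, and -0.25 with the trend removed). NAIP was under the filter and BIRC7 and BIRC8 were at 0 counts. Of 7 measured genes that antagonise or assist IAPs, 1 rose and 2 fell, with a median of -0.08, a share of calls close to the 41.5% of all tested genes. HTRA2, a mitochondrial protease that binds IAPs, rose (0.36, adjusted p = 0.00121), but not with the trend removed (0.16, adjusted p = 0.107). DIABLO, the best-known IAP antagonist, missed the threshold at a log2 fold change of 0.36 (adjusted p = 0.0622), and passed with the trend removed (0.45, adjusted p = 0.0259). Leaving out vector replicate 3, TIPE replicate 1 or TIPE replicate 3 also made it pass (adjusted p = 0.0491, 0.0157 and 0.0348). The deubiquitinase USP9X and the ubiquitin-conjugating enzyme UBE2D1 fell (-0.34 and -0.22), but neither passed with the trend removed (-0.07 and -0.05, adjusted p = 0.233 and 0.624). The call of UBE2D1 was lost without vector replicates 2 or 3 and without TIPE replicates 1 or 2 (adjusted p = 0.0558, 0.0568, 0.0871 and 0.0784). XAF1, an XIAP-binding protein, was listed at 0.00667 and 0 FPKM.

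Of 19 measured caspase substrates, 7 rose and 3 fell, against 20.9% and 20.7% of all tested genes. The median log2 fold change of the 19 was 0.01. The list mixes structural and signalling proteins. The intermediate filaments VIM and KRT18 rose (0.96 and 0.71), and RB1 and the kinase ROCK1 fell (-0.57 and -0.55). These transcript levels say nothing of cleavage, which is a change in the protein. CYCS, HSPD1, HSPE1, KRT18 and IKBKG have near-identical pseudogene copies, so reads could have been split between copies and their values are less certain.

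**Figure D4:**
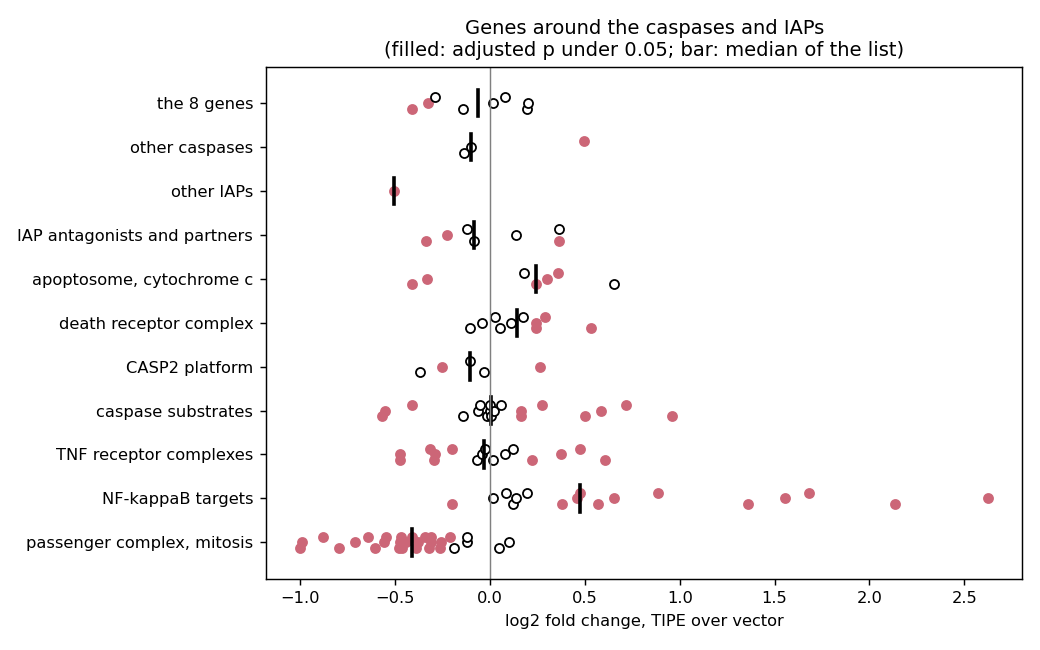
Log2 fold change, TIPE over vector libraries, of each measured gene of the 8 members and of 10 lists around them. Over all tested genes 20.9% were called higher and 20.7% lower. Filled points had an edgeR adjusted p under 0.05 and black bars are list medians; the mitosis list lay lowest of the longer lists (median -0.41, 24 of 29 lower) and the NF-kappaB targets highest (median 0.47, 11 of 17 higher), while the 8 members spread around 0.

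Per kilobase, the members were ordered BIRC2, BIRC5, XIAP, CASP2, CASP8, CASP6, CASP9 and BIRC3. Means over the 6 libraries were 17.1, 17.1, 12.3, 10.0, 3.75, 2.08, 1.88 and 1.43 FPKM. The ranges over libraries overlapped for BIRC2 and BIRC5, for BIRC5 and XIAP, for XIAP and CASP2, and for CASP6 and CASP9, but not for CASP9 and BIRC3. CASP8, at 3.57 to 4.00 FPKM, overlapped neither neighbour. The summed level of the 4 IAP genes was 53.3, 54.4 and 52.8 FPKM in the vector libraries and 42.9, 40.5 and 43.9 FPKM in the TIPE libraries. That of the 4 caspases was 18.6, 17.5 and 17.9 FPKM and 17.6, 17.7 and 17.3 FPKM. The IAP sums did not overlap between groups and the caspase sums did. The sums carry neither TMM factors nor a correction for GC content and length. With the GC and length trend removed, the log2 fold changes of XIAP, BIRC5, BIRC2 and BIRC3 were -0.17, -0.42, 0.02 and 0.47. No test was made on these sums.

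**Figure D5:**
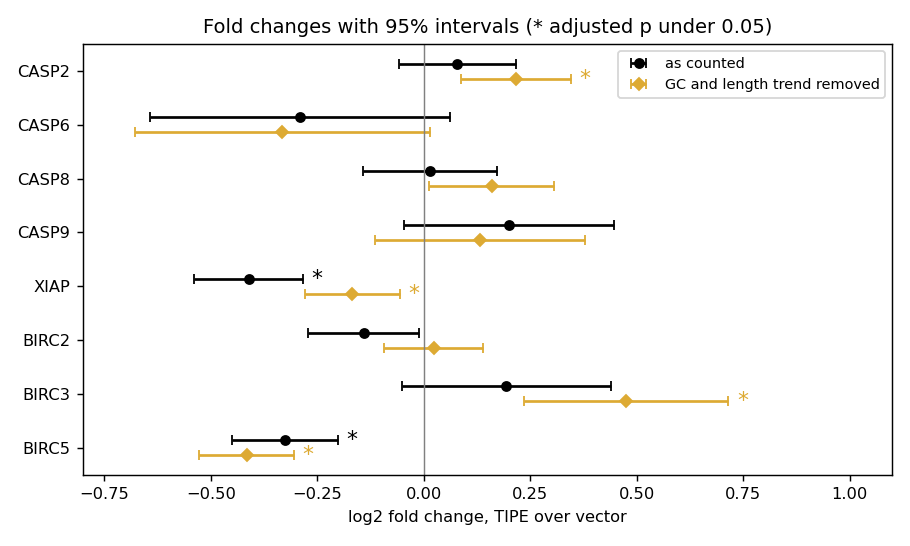
Log2 fold change of each member, TIPE over vector libraries, with 95% intervals from edgeR, as counted (black) and with the trend of each library on GC content and exonic length removed (yellow). Stars mark an adjusted p under 0.05; XIAP moved from -0.41 to -0.17, BIRC3 from 0.19 to 0.47 and CASP2 from 0.08 to 0.22, and BIRC5 lay at -0.33 and -0.42.

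The genes most like XIAP over the 6 libraries, by the root mean square difference of log2 CPM after centring each gene on its mean, were SELENOI, PCF11 and PDZD8 (differences of 0.0267, 0.0286 and 0.0307). Those most like BIRC5 were AFTPH, OTULIN and RRN3 (0.0227, 0.0228 and 0.0258). With 6 libraries in 2 groups this likeness is mostly a like difference between the groups. The log2 fold changes of these 6 genes were -0.44 to -0.30.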

How the data were processed

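The authors deposited 1 table with a raw count and an FPKM value per gene and library. The deposited FPKM values were matched to within 0.005 by the count divided by exonic size and library total. Alignment was with HISAT2 2.0.1 to hg38, per the submitters' processing notes. Which tool counted reads, on which annotation release and with which strand setting, was not given in the sources used here.

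Genes whose FPKM averaged 0.5 or more over the libraries were fitted with edgeR 4.0.16 (quasi-likelihood test, TMM factors of 0.962 to 1.03, group alone as the term, Benjamini-Hochberg adjustment over 14205 genes, adjusted p under 0.05). Standard errors were the absolute log2 fold change over the square root of the F statistic, with 95% intervals from the t distribution of the fit. GC content came from the longest GENCODE 29 transcript and was known for 99.4% of tested genes. A loess (span 0.3) of each library on GC content and log2 exonic length gave an offset for the corrected values. A count of 0 allows up to 3 counts, 0.147 to 0.215 CPM, for counting error only. Libraries of a group differed by more than sampling noise (chi-square per gene 2.32 to 8.28 within groups, 23.9 to 43.4 between), so none was merged. Within groups, TIPE replicate 3 differed most, at 8.28 and 7.76 from TIPE replicates 1 and 2. The latter stood at 3.17 from each other, and the vector libraries at 2.32 to 3.86.

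The 8 members and the 13 lists were chosen with earlier results of these data known. The named genes were the members, TNFAIP8, fixed direct partners of members (some are not reported here), up to 4 genes of each list past the threshold with the smallest adjusted p, genes overlapping a member, and the 3 nearest genes of the 2 members with the smallest adjusted p. CDKN1A, CYLD, CCNB1, MT-CO1, TNFRSF10A and the markers named were added after their values were seen. RefSeq promoter windows were found for 7 of 8 members, not for BIRC5. Alternatives used R 4.3.3, limma 3.58.1 and DESeq2 1.42.0.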

Additional observations from a re-analysis of the deposited data

How the results depend on the processing

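The fall of XIAP and that of BIRC5 kept their direction and their call under all 19 alternatives, with log2 fold changes of -0.48 to -0.17 for XIAP and -0.42 to -0.30 for BIRC5 and highest adjusted p of 0.0244 and 0.00248. The trend on GC content and length moved XIAP by over 1.5 times. With that trend removed, and also with the replicate block added, CASP2 (0.22 and 0.21, adjusted p = 0.00949 and 0.0152) and BIRC3 (0.47 and 0.47, adjusted p = 0.00303 and 0.00234) passed, so 2 members rose, and BIRC2 turned to 0.024 and 0.026. Removing the GC trend alone, added after seeing the data, left 1 member higher (BIRC3, 0.44) and BIRC2 at 0.069. Removing the length trend alone, added likewise, called 4 members lower, with CASP6 at -0.42 and BIRC2 at -0.16. Limma on log2(FPKM + 1) and on log2(FPKM + 0.1) also called 4 lower. CASP6 was at -0.24 and -0.34 there and BIRC2 at -0.20 and -0.21. CASP8 was not called on these scales (limma adjusted p = 0.584 and 0.576), but its sign turned (-0.043 and -0.053). These scales carry no TMM factors, shifted the median of all genes to -0.05 and -0.07, and called 1912 and 1902 genes higher, against 2967 with TMM, and 3242 and 3248 lower, against 2935. Without scaling factors the median was -0.07, with 2134 higher and 3883 lower, BIRC2 at -0.21 (adjusted p = 0.00946) and CASP8 at -0.058. Otherwise the cause was not tested. CASP9 and BIRC3 lay under the filter of 2 FPKM and had no value there.

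The replicate block alone changed no member's call (XIAP -0.41, adjusted p = 4.43e-05, and BIRC5 -0.33, adjusted p = 0.000447). Replicate numbers did not pair the libraries: deviations of same-numbered libraries correlated at -0.00085, -0.024 and -0.041 across genes. The block called 5601 genes, against 5902.

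Leaving out 1 library at a time gave 0 to 1 members higher and 2 to 3 lower, with CASP2 at 0.037 to 0.15, BIRC2 at -0.20 to -0.11 and CASP8 at -0.023 to 0.038. CASP8 was negative without vector replicate 3 (-0.023) and without TIPE replicate 3 (-0.0031). Uncalled partners changed sign. FADD stood at -0.080 without the GC and length trend, with or without the block, at -0.041 for GC alone and at -0.027 for length alone. CFLAR was at 0.15 with GC and length removed, 0.15 with the block added and 0.14 for length alone. CRADD ran from -0.14 to 0.052 when libraries were left out, at 0.028 without vector replicate 2 and 0.052 without TIPE replicate 1. CCNB1 (-0.013) turned for length alone. Genes called lower also changed sign, UBE2D1 (0.022) for GC alone and CYLD (0.062, and 0.062 with the block) for GC and length. Of the other results, 1316 kept direction and side, 93 lost a call, 27 gained one, 13 changed sign and 157 counts or medians moved. CASP6 had the fewest counts and the widest interval of the members; an effect of depth was not tested.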
